A study of Mus musculus with 34 samples.

Results

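The DNA replication genes described here are 41 mouse genes for origin licensing, helicase activation, the polymerases and sliding clamp, flap removal and ligation, nucleotide supply, chromatin copying and entry into S phase. They were taken by symbol and by role. All 41 were found among the 48709 genes of the count table, and all 41 passed the filter on low counts, as did 17616 genes in all. Bulk RNA was sequenced from islets of mice with the label RIP-DTR HTZ. RIP-DTR places a diphtheria toxin (DT) receptor under the rat insulin promoter, so that the toxin can kill beta cells. The question of the series was how islets respond at the molecular level to partial loss of beta cells. All 9 groups carry the transgene. Groups sampled at 10 weeks were given streptozotocin (STZ, a beta-cell toxin) at 75 mg/kg, DT or neither, on a diet labelled HFD (STZ HFD, n = 4; DT HFD, n = 3; CTRL HFD, n = 4) or SD (STZ SD, n = 4; DT SD, n = 4; CTRL SD, n = 3). The groups DT 30 DPA and DT 5 DPA (n = 4 each) were sampled 30 and 5 days after DT, and CTRL (n = 3) is untreated with no time or diet in its labels. The labels give no age or sex, and they do not say whether replicates are separate animals, so that p-values measure only the spread between these samples.

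Replication starts when the origin recognition complex, Cdc6 and Cdt1 load the ring of Mcm proteins onto DNA in G1, which is called licensing. In S phase, Cdc45 and the GINS complex turn that ring into an active helicase, and polymerases held by the clamp Pcna copy both strands while ribonucleotide reductase, thymidylate synthase and thymidine kinase supply the building blocks. Many of these genes are transcribed under E2F factors at the passage from G1 to S, and adult beta cells rarely enter S phase.

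E2F factors are known to bind words of the form TTTCCCGC, TTTCGCGC, TTTGCCGC and TTTGGCGC on either strand. Windows of 300 bases around the transcript start were available from RefSeq (build GRCm38.p6) for 34 of the 41 genes. At least 1 of these words stood in the windows of 13 of the 34 genes (38.2%), against 704 of all 27025 genes with a window (2.60%). The CCAAT box, CCAAT on either strand, stood in 20 of the 34 (58.8%) and in 41.1% of all genes. A match describes the letters only and says nothing of binding. By role, the E2F words were in 7 of 9 licensing genes and in 0 of 5 nucleotide supply genes. The windows of the 5 genes with more than 1 match are printed 5′ to 3′ with the E2F words in capitals, since they are the replication promoters richest in these words. The window of Tk1 follows as a contrast, because Tk1 had the smallest adjusted p between the times after DT and no match. They lie at chr1:20820263-20820562 (minus strand) for Mcm3, chr8:75109259-75109558 (plus strand) for Mcm5, chr1:128359656-128359955 (minus strand) for Mcm6, chr5:138171834-138172133 (minus strand) for Mcm7, chr5:151651159-151651458 (minus strand) for Rfc3 and chr11:117825965-117826264 (minus strand) for Tk1.
Mcm3: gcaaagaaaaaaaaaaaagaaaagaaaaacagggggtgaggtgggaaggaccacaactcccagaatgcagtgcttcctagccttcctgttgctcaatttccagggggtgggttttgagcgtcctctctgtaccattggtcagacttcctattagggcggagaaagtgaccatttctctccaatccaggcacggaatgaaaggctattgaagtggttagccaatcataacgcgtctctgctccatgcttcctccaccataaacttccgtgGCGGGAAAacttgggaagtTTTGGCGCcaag
Mcm5: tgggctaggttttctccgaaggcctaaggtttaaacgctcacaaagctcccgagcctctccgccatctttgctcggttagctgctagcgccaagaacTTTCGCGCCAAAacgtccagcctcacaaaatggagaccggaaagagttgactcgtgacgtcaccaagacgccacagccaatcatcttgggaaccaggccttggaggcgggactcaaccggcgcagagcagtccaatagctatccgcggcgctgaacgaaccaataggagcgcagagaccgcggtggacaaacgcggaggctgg
Mcm6: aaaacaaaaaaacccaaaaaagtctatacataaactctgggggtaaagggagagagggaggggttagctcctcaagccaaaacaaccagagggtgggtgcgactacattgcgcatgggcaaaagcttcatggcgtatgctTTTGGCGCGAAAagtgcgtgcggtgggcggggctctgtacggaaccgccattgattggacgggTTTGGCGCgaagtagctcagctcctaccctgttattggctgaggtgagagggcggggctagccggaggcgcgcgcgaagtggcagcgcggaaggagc
Mcm7: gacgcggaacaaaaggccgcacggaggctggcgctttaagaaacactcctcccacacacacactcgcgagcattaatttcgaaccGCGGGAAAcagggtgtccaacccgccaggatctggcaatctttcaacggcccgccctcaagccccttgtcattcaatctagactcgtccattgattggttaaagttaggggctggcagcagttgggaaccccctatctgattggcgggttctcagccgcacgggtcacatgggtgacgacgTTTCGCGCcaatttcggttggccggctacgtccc
Rfc3: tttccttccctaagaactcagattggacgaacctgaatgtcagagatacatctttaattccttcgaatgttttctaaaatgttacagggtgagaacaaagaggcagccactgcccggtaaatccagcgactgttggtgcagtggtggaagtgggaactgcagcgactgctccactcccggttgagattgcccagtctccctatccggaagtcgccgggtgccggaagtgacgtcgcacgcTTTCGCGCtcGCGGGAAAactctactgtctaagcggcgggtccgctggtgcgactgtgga
Tk1: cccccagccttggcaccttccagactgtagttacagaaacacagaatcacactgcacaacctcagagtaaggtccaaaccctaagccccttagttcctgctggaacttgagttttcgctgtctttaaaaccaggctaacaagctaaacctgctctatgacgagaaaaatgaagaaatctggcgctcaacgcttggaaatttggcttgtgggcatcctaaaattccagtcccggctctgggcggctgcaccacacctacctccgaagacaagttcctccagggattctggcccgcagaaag
In Mcm5 and in the upstream pair of Mcm6 the matches overlap on opposite strands and read as 1 longer run of capitals. In Mcm3 both matches lie after the transcript start, at bases 20 and 39, whereas those of Mcm5 begin 153 and 149 bases before it. Mcm7 has a second window, which holds no match. Genes with and without a match both held calls between 30 and 5 days after DT. Of genes with a match, 10 of 13 were called lower (median log2 fold change -1.36), and of those without one 15 of 21 (median -0.95). Of all genes tested 13.9% were called lower, and these were not split by the words. The difference between the sets with and without a match was not tested.

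**Figure D1:**
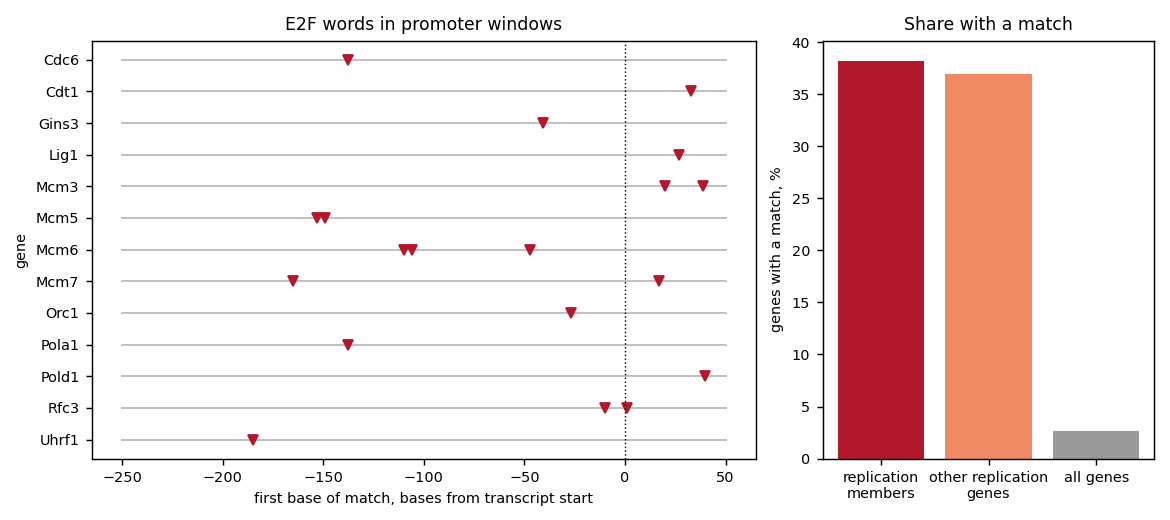
Left, position of the first base of each E2F word relative to the transcript start (dotted line) in the 13 replication genes with a match; grey lines are the windows searched. Right, percentage of genes with a match among the 34 replication genes with a window (38.2%), 46 other replication genes (37.0%) and all 27025 genes with a window (2.60%).

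Total counts ranged from 11083117 to 18918348 per library. Ins2, the main mouse insulin gene, reached at least 19244 CPM (counts scaled to the TMM-adjusted library size) in each of the 33 grouped libraries. Libraries stood apart by RNA of other tissues. The summed level of 8 enterocyte markers exceeded 500 CPM in DT HFD replicate 1, STZ SD replicates 1 and 4, DT 30 DPA replicate 2, DT 5 DPA replicates 1, 2 and 4 and CTRL replicate 2. DT HFD replicate 2, CTRL replicate 2 and STZ HFD replicate 2, called lymphocyte-rich below, were picked for lymphocyte scores in an earlier analysis of these data and had 3200, 2852 and 2328 CPM over 15 lymphocyte markers. DT HFD replicate 3, at 2355 CPM, was above the last of them and stays in the fits without that set. The acinar sum of STZ HFD replicate 4 over 8 markers was 595787 CPM, where no other library exceeded 160997 CPM. Results that rest on these libraries are given with and without them. In bulk RNA, fewer cells of a type and less RNA per cell cannot be told apart.

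Levels between genes were compared in TPM, the authors' values per transcript length. Over the 33 libraries Pcna, the sliding clamp, stood highest at 63.4 ± 36.8 TPM (SD, n = 33). Rpa1, which coats single-stranded DNA, followed at 25.1 ± 9.34 TPM and Dut, which removes dUTP, at 24.1 ± 9.18 TPM. Rpa1 and Dut differ by less than their spread, whereas Pcna lay further above Rpa1 than either SD. The lowest were Pole, the leading-strand polymerase, at 1.501 ± 1.35 TPM, Mcm10, a helicase activator, at 1.26 ± 1.48 TPM, and Orc1, the largest origin recognition subunit, at 0.670 ± 0.695 TPM. The genes also differed in how far group means lay apart. The ratio of the highest to the lowest group mean in CPM was 8.46 for Mcm10, 6.13 for Rrm2 (the small subunit of ribonucleotide reductase) and 5.83 for Uhrf1 (which recognises newly copied DNA), but 1.498 for Rpa1 and 1.45 for Gins4.

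Across the 9 groups, 30 of the 41 genes had their highest group mean in DT HFD, 10 in DT 5 DPA and 1, Orc6, in DT SD. The lowest group mean fell in DT SD for 28 genes. A summary level per library, the mean log2(CPM + 0.5) of the 41 genes, was 4.35 ± 0.67 in DT HFD and 4.29 ± 0.16 in DT 5 DPA. The other groups lay lower, at 3.68 ± 0.38 in STZ HFD, 3.56 ± 0.27 in CTRL HFD, 3.28 ± 0.44 in STZ SD, 3.05 ± 0.33 in DT SD, 3.27 ± 0.03 in CTRL SD, 3.19 ± 0.37 in DT 30 DPA and 3.64 ± 0.56 in CTRL (SD, n as above). The groups with the highest means differed in evenness. The 4 DT 5 DPA libraries lay between 4.13 and 4.50, while the 3 DT HFD libraries spanned 3.73 to 5.05 with replicate 2 highest of all libraries.

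**Figure D2:**
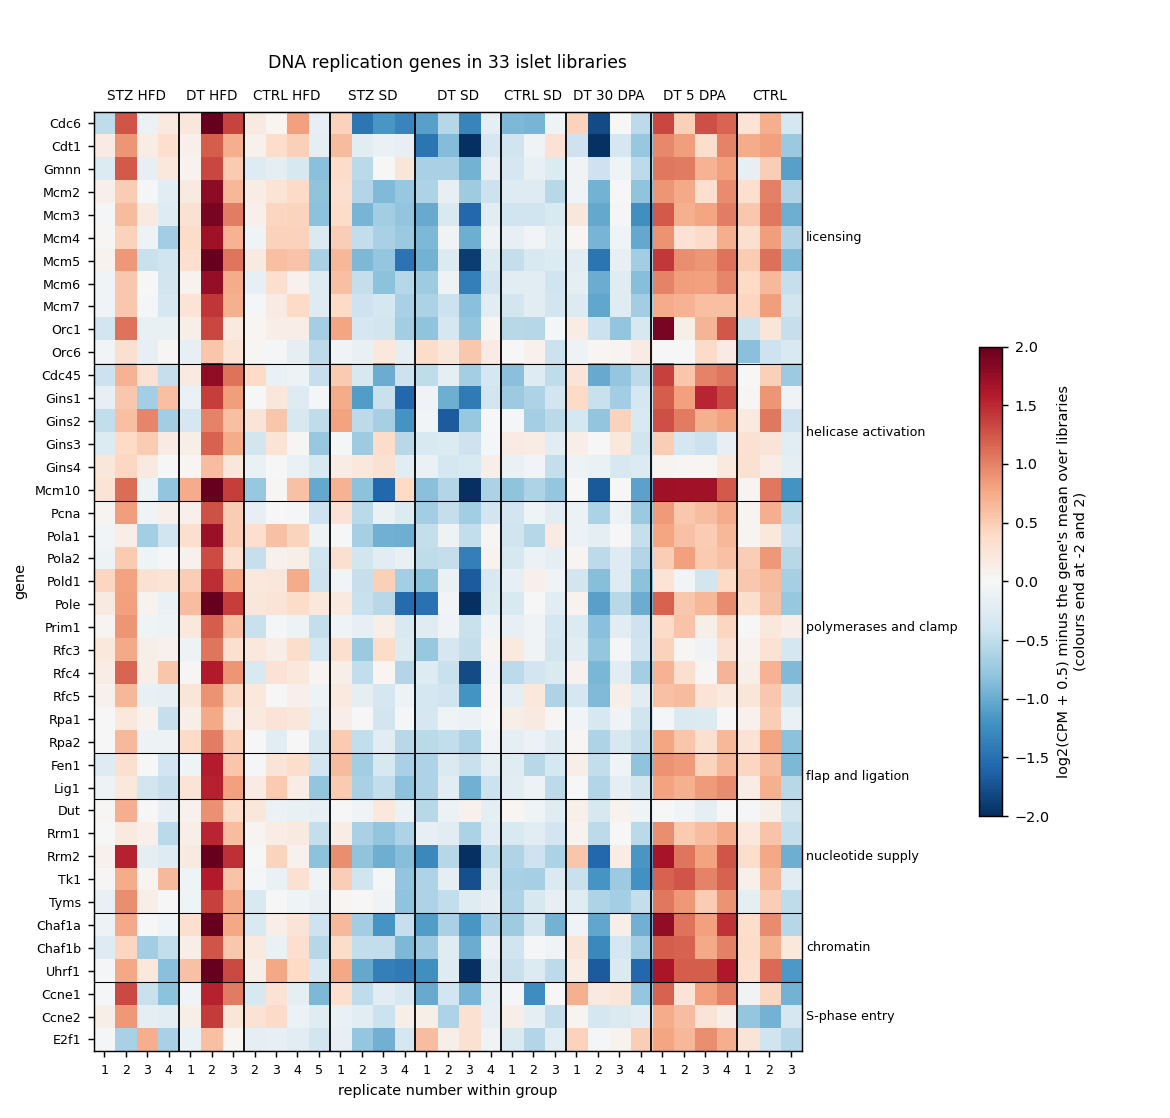
Each cell is log2(CPM + 0.5) of a gene (row) in a library (column) minus the gene's mean over the 33 libraries; black lines part the groups and the roles. The DT 5 DPA columns and DT HFD replicate 2 are red over most rows, and DT SD replicate 3 and DT 30 DPA replicate 2 are blue.

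Between 30 and 5 days after DT, 29 of the 41 genes fell and 0 rose, against 13.9% of all genes called lower (30.5% called in either direction). The median log2 fold change of the 41 was -1.12, beside 0.02 over all genes tested, and 39 of the 41 lay below 0. In 32 genes every DT 30 DPA library was below every DT 5 DPA library, against 16.5% of all genes. By role the calls took in 10 of 11 licensing genes, 3 of 6 helicase activation genes, 7 of 11 polymerase and clamp genes, both flap and ligation genes, 4 of 5 nucleotide supply genes, all 3 chromatin genes and 0 of 3 S-phase entry genes.

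Among licensing genes, Mcm6, a subunit of the helicase ring and the licensing gene with the highest mean CPM, was at 33.2, 18.6, 31.8 and 20.7 CPM in DT 30 DPA, against 75.3, 67.6, 66.6 and 74.2 CPM in DT 5 DPA. Mcm7, of the same ring, was at 25.1, 14.6, 25.7 and 18.6 CPM in DT 30 DPA and at 51.0, 49.6, 46.3 and 46.5 CPM in DT 5 DPA. Every DT 30 DPA library was below every DT 5 DPA library for both, and within DT 30 DPA replicates 2 and 4 were the lower pair. The log2 fold changes were -1.44 for Mcm6 (SE 0.33, adjusted p = 0.00232) and -1.20 for Mcm7 (SE 0.26, adjusted p = 0.00156). Cdt1, which brings the ring to origins, stood at 6.26, 1.79, 6.63 and 4.88 CPM in DT 30 DPA, against 17.1, 15.7, 11.0 and 17.4 CPM in DT 5 DPA, without overlap (log2 fold change -1.65, SE 0.39, adjusted p = 0.00312). The other Mcm2 to Mcm5 subunits fell by 1.04 (Mcm4) to 1.68 (Mcm5) on the log2 scale. Gmnn, the inhibitor of Cdt1, fell by 1.23 and Cdc6, which helps load the ring, by 1.48. Orc1 fell by 1.98 (adjusted p = 0.0136), from low counts and with overlap, since DT 30 DPA replicate 1 at 1.10 CPM was above DT 5 DPA replicate 2 at 1.06 CPM. The exception was Orc6, the smallest origin recognition subunit, at 16.8, 18.5, 18.8 and 20.2 CPM in DT 30 DPA and 17.8, 18.2, 23.7 and 20.3 CPM in DT 5 DPA (log2 fold change -0.11, SE 0.16, adjusted p = 0.649).

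Helicase activation genes split. Cdc45 (log2 fold change -1.58, adjusted p = 0.00416), Mcm10 (-2.34, adjusted p = 0.00752) and Gins1 (-1.67, adjusted p = 0.0177) fell. Gins2 missed the threshold at -1.21 (adjusted p = 0.0501), and Gins3 and Gins4 were at 0.08 and -0.30. Gins4, the member of this role with the highest mean CPM, stood at 13.4, 13.1, 11.4 and 11.9 CPM in DT 30 DPA, against 15.1, 14.8, 14.9 and 16.6 CPM in DT 5 DPA. The Gins4 libraries did not overlap, but the difference did not pass (SE 0.15, adjusted p = 0.129). Of the 4 GINS subunits, 1 was therefore called.

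In the polymerase and clamp group, Pcna was at 65.8, 45.6, 66.1 and 42.4 CPM in DT 30 DPA, against 129, 104, 109 and 119 CPM in DT 5 DPA. All 4 later libraries were below all 4 earlier ones (log2 fold change -1.07, SE 0.25, adjusted p = 0.00232). Pole stood at 6.06, 2.43, 3.72 and 2.62 CPM in DT 30 DPA and 13.6, 8.54, 9.31 and 11.5 CPM in DT 5 DPA (log2 fold change -1.53, SE 0.46, adjusted p = 0.0142). The primase subunit Prim1 fell by 0.84, the primase-coupled polymerase subunits Pola1 and Pola2 by 0.86 and 0.95, the clamp loader subunit Rfc5 by 0.76 and Rpa2 by 0.95 on the log2 scale. Rfc3 and Rfc4, of the same clamp loader, were at -0.55 and -0.91 and were not called, nor was the lagging-strand polymerase Pold1 at -0.66 (adjusted p = 0.118). Rpa1 was at -0.07 (adjusted p = 0.772).

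The flap nuclease Fen1 fell by 1.02 and the ligase Lig1, which seals the lagging strand, by 1.12 on the log2 scale. Lig1 stood at 19.5, 13.0, 17.4 and 15.2 CPM in DT 30 DPA, against 34.8, 32.6, 36.0 and 38.4 CPM in DT 5 DPA, without overlap (SE 0.31, adjusted p = 0.00753).

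Nucleotide supply held the smallest adjusted p values of the set. Tk1, the thymidine kinase of S phase, was at 7.03, 4.02, 5.69 and 3.93 CPM in DT 30 DPA, against 22.6, 23.9, 19.9 and 22.6 CPM in DT 5 DPA. Tyms, which makes dTMP, was at 6.97, 5.24, 5.01 and 5.83 CPM in DT 30 DPA and 17.8, 15.6, 11.99 and 15.9 CPM in DT 5 DPA. For both genes the highest DT 30 DPA library was well below the lowest DT 5 DPA library. The log2 fold changes were -2.10 for Tk1 (SE 0.35, adjusted p = 9.58e-05) and -1.41 for Tyms (SE 0.28, adjusted p = 0.000678). Rrm1, the large subunit of ribonucleotide reductase, stood at 34.3, 22.6, 32.4 and 22.4 CPM in DT 30 DPA, against 62.8, 47.1, 50.2 and 55.4 CPM in DT 5 DPA (log2 fold change -0.95, SE 0.26, adjusted p = 0.00727), and Rrm2 fell by 1.51. Dut was at 0.01 (adjusted p = 0.966).

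The chromatin genes had the lowest median log2 fold change of the roles, at -1.84. Chaf1a, the large subunit of the chromatin assembly factor that loads histones behind the fork, was at 5.23, 2.43, 6.02 and 2.62 CPM in DT 30 DPA, against 20.1, 12.3, 10.2 and 15.9 CPM in DT 5 DPA. Its partner Chaf1b was at 4.65, 1.28, 2.91 and 2.18 CPM in DT 30 DPA and 9.51, 9.32, 6.86 and 8.23 CPM in DT 5 DPA. Uhrf1 was at 15.5, 4.09, 11.3 and 4.37 CPM in DT 30 DPA and 44.4, 33.1, 33.0 and 43.6 CPM in DT 5 DPA. In none of the 3 did the groups overlap, and DT 30 DPA replicates 2 and 4 were lowest. The log2 fold changes were -1.84 for Chaf1a (SE 0.43, adjusted p = 0.00255), -1.62 for Chaf1b (SE 0.37, adjusted p = 0.00224) and -2.13 for Uhrf1 (SE 0.57, adjusted p = 0.00675). The S-phase entry genes Ccne1 and Ccne2 (the E cyclins) and E2f1 were at -0.72, -0.68 and -0.53, with adjusted p between 0.0673 and 0.242.

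**Figure D3:**
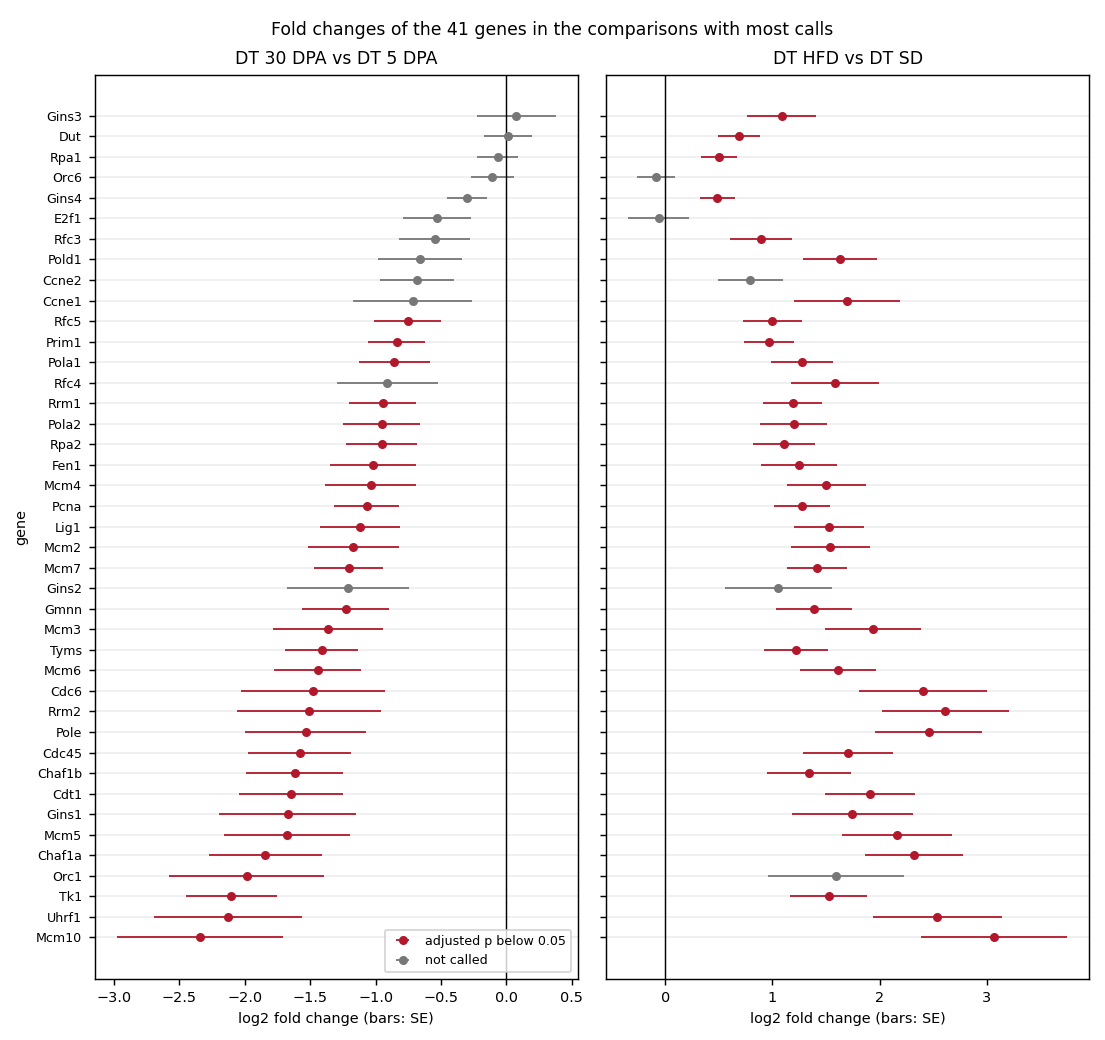
Log2 fold change with its standard error for the 41 genes, ordered by the comparison of DT 30 DPA with DT 5 DPA (left) and shown in the same order for DT HFD against DT SD (right); red marks an adjusted p below 0.05. On the left 29 genes are called, all below 0, and on the right 36, all above 0.

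Libraries with enterocyte RNA were common at 5 days, so that leaving out all such libraries left DT 5 DPA with replicate 3 alone, which is then assumed to vary like the other groups. Then 1 of the 41 genes, Tk1, was called (all genes 4.93%; log2 fold change -1.85, adjusted p = 0.0170), 38 lay below 0 and the median was -0.80. With any single library of the groups left out, between 21 and 31 of the 41 genes were called. Myeloid markers moved the same way: the summed level of 10 of them was 486 to 1093 CPM in DT 30 DPA and 5163 to 7686 CPM in DT 5 DPA, and 10 of 10 were called lower. Mesenchymal markers summed to 853 to 1111 CPM in DT 30 DPA and 3035 to 4218 CPM in DT 5 DPA, with 6 of 6 called lower, whereas the sums of 15 lymphocyte markers overlapped, at 331 to 729 CPM in DT 30 DPA and 179 to 1144 CPM in DT 5 DPA, with 0 called. Beta-cell markers went the other way, with 7 of 8 called higher. None of these lists had a marker at 0 in every library of either group, and their part in the replication result was not tested.

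At 5 days after DT against untreated islets, 3 of the 41 genes rose, against 3.80% of all genes called higher (5.39% in either direction). The median log2 fold change was 0.64, beside -0.05 over all genes, with 37 genes above 0, and in 14 genes all DT 5 DPA libraries were above all CTRL libraries, against 9.64% of all genes. The called genes were Ccne2, Orc6 and E2f1. Ccne2 stood at 14.8, 13.5, 10.5 and 9.42 CPM in DT 5 DPA, against 4.86, 4.25 and 6.76 CPM in CTRL. E2f1, an activator of S-phase genes, stood at 18.7, 17.2, 20.6 and 17.9 CPM in DT 5 DPA, against 12.8, 7.97 and 7.00 CPM in CTRL. Orc6 stood at 17.8, 18.2, 23.7 and 20.3 CPM in DT 5 DPA, against 9.90, 13.4 and 14.5 CPM in CTRL. The groups did not overlap for any of them, but each call was lost in several other settings: 8 for Ccne2, 6 for Orc6 and 11 for E2f1. The log2 fold changes were 1.18 for Ccne2 (SE 0.31, adjusted p = 0.0227), 0.67 for Orc6 (SE 0.18, adjusted p = 0.0269) and 1.00 for E2f1 (SE 0.29, adjusted p = 0.0369).

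These 3 genes were not called without the enterocyte libraries, which leaves DT 5 DPA replicate 3 alone. Their adjusted p values were then 0.476 for Ccne2, 0.0898 for Orc6 and 0.284 for E2f1, with log2 fold changes of 0.86, 0.96 and 1.06. The other large differences did not pass. Tk1 had CTRL values of 10.5, 15.6 and 8.23 CPM, all below DT 5 DPA (log2 fold change 0.96, SE 0.37, adjusted p = 0.133). Mcm6 had CTRL values of 49.9, 59.4 and 27.2 CPM, also all below DT 5 DPA (0.64, SE 0.36, adjusted p = 0.335). CTRL was itself uneven: its summary level ranged from 3.03 in replicate 3 to 4.14 in replicate 2, and the lymphocyte sums of the same libraries were 355 and 2852 CPM. Without the 3 lymphocyte-rich libraries, CTRL replicate 2 among them, 7 of the 41 genes were called higher (all genes 8.43% in either direction). The share of all genes called higher in that setting is not given here, so the count and the percentage are not of the same kind. Myeloid sums were 5163 to 7686 CPM in DT 5 DPA and 663 to 1738 CPM in CTRL, with 10 of 10 markers called higher. Mesenchymal sums were 3035 to 4218 CPM in DT 5 DPA and 689 to 1219 CPM in CTRL, with 4 of 6 called higher. The part of these cells in the replication values was not tested.

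At 30 days after DT against untreated islets, 0 of the 41 genes were called, where 0.233% of all genes were. In edgeR's test 12 of the 41 had an unadjusted p below 0.05, and DESeq2's Wald test called 4. The shares of all genes for these counts are not given here. The median log2 fold change was -0.55 with 36 genes below 0, and the smallest adjusted p was 0.0652, for Mcm7 (log2 fold change -0.92, SE 0.28). Tk1 was below all CTRL libraries in all 4 DT 30 DPA libraries (log2 fold change -1.15, SE 0.36, adjusted p = 0.0705). Orc6 went the other way, above all CTRL libraries (0.56, SE 0.18, adjusted p = 0.0748), and the E2f1 and Ccne2 values were 0.47 and 0.50, not called. Without CTRL replicate 3, the lowest CTRL library, 12 of the 41 were called, where 23.7% of all genes were. These 3 comparisons share libraries, so that their values are not independent of each other.

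**Figure D4:**
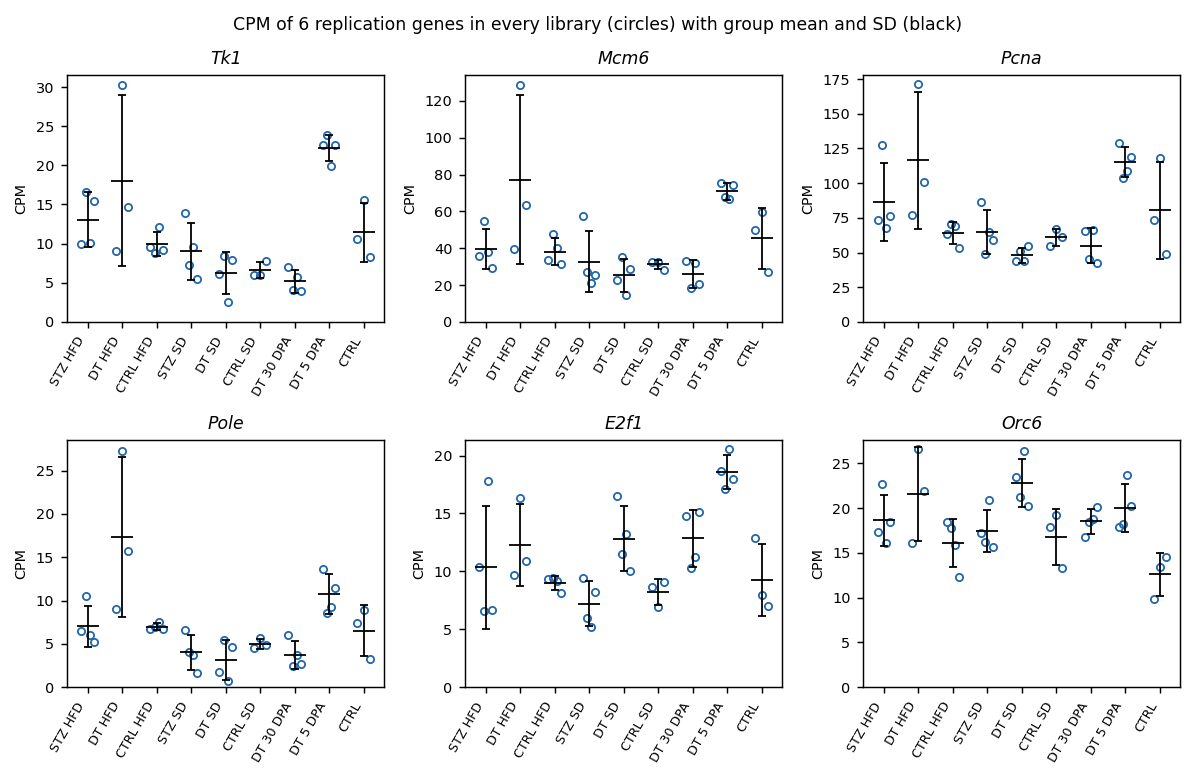
CPM of Tk1, Mcm6, Pcna, Pole, E2f1 and Orc6 in each library (circles), with group mean and SD in black, over the 9 groups. Tk1 and Mcm6 in DT 5 DPA lie above all DT 30 DPA and CTRL libraries, DT HFD replicate 2 is the highest library for Tk1, Mcm6, Pcna, Pole and Orc6, and E2f1 is highest in DT 5 DPA.

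At 10 weeks after DT, islets on HFD differed from those on SD: 36 of the 41 genes rose in DT HFD and 0 fell, against 15.0% of all genes called higher (23.5% in either direction). The median log2 fold change was 1.42, beside -0.01 over all genes, with 39 genes above 0. In 34 genes every DT HFD library was above every DT SD library, against 20.7% of all genes. The number of calls depends on 1 library. Without DT HFD replicate 2, 0 of the 41 genes and 0 of all genes tested were called in edgeR's test, the median of the 41 was 0.93, 39 were still above 0 and the smallest adjusted p was 0.0946.

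Licensing genes were called in 9 of 11 cases. Mcm7 stood at 37.1, 83.0 and 50.1 CPM in DT HFD, against 19.5, 22.4, 16.9 and 26.0 CPM in DT SD (log2 fold change 1.42, SE 0.28, adjusted p = 0.0041). Mcm6 stood at 39.7, 129 and 63.4 CPM in DT HFD, against 22.9, 35.1, 14.3 and 28.7 CPM in DT SD (1.61, SE 0.35, adjusted p = 0.00515). For both, replicate 2 was the highest and replicate 1 the lowest DT HFD library, and neither gene's groups overlapped. Without DT HFD replicate 2 the Mcm7 value was 1.04 (adjusted p = 0.0973). Cdt1 at 9.24, 20.5 and 14.4 CPM in DT HFD and 2.79, 4.46, 1.68 and 6.67 CPM in DT SD gave 1.91 (SE 0.42, adjusted p = 0.00515). Orc1 was not called at 1.59 (adjusted p = 0.0642). Orc6 was at 16.1, 26.6 and 22.0 CPM in DT HFD and 23.4, 21.2, 26.4 and 20.3 CPM in DT SD, with overlap (log2 fold change -0.08, SE 0.18, adjusted p = 0.753).

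All 11 polymerase and clamp genes rose. Pcna stood at 76.7, 172 and 101 CPM in DT HFD, against 43.6, 51.0, 43.5 and 54.4 CPM in DT SD (log2 fold change 1.28, SE 0.26, adjusted p = 0.00459). Pole stood at 9.001, 27.2 and 15.7 CPM in DT HFD, against 1.72, 5.46, 0.674 and 4.66 CPM in DT SD (2.46, SE 0.50, adjusted p = 0.00459). Pold1 stood at 31.5, 62.8 and 38.8 CPM in DT HFD, against 12.4, 20.3, 6.65 and 17.9 CPM in DT SD (1.63, SE 0.34, adjusted p = 0.00466). All 3 had every DT HFD library above every DT SD library, and DT SD replicate 3 was the lowest for each. The values without DT HFD replicate 2 were 0.88, 1.97 and 1.29, with adjusted p between 0.0946 and 0.0985. Rpa1 had the smallest called rise of these genes, at 0.50 (adjusted p = 0.0333).

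In the other roles, Lig1 at 23.8, 58.3 and 35.2 CPM in DT HFD, against 12.6, 17.03, 9.85 and 14.6 CPM in DT SD, rose by 1.53 (SE 0.33, adjusted p = 0.00491). Chaf1a at 7.06, 25.4 and 9.79 CPM in DT HFD, against 2.29, 3.38, 2.19 and 3.37 CPM in DT SD, rose by 2.32 (SE 0.46, adjusted p = 0.00419). Neither gene's groups overlapped. Among nucleotide supply genes Rrm2 rose by 2.61, Tk1 by 1.52, Tyms by 1.22, Rrm1 by 1.19 and Dut by 0.69. The largest log2 fold change of the 41 was that of Mcm10, at 3.07 (SE 0.68, adjusted p = 0.00534), and the GINS genes Gins1, Gins3 and Gins4 rose by 1.75, 1.09 and 0.49 while Gins2 was at 1.06 (adjusted p = 0.117). Of the S-phase entry genes Ccne1 rose by 1.70, Ccne2 was at 0.79 (adjusted p = 0.0548) and E2f1 at -0.06. E2f1 stood at 9.65, 16.3 and 10.9 CPM in DT HFD and 16.5, 11.5, 13.2 and 10.0 CPM in DT SD, overlapping throughout (SE 0.28, adjusted p = 0.891).

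Lymphocyte markers moved with this result. Their summed level was 1850 to 3200 CPM in DT HFD and 115 to 1188 CPM in DT SD, and 8 of 15 were called higher. Beta-cell markers were called lower in 6 of 8 cases. Acinar sums were 6078 to 17324 CPM in DT HFD and 35991 to 157114 CPM in DT SD, with 1 of 8 markers called lower. Without the 3 lymphocyte-rich libraries 1 of the 41 genes was called (all genes 0.517%), Pcna (log2 fold change 0.88, adjusted p = 0.0452). Leaving out the enterocyte libraries as well, which leaves DT HFD replicate 3 alone with its 2355 CPM of lymphocyte markers, gave 11 calls (all genes 2.72%). The part of lymphocyte and acinar RNA in the replication result was not tested.

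**Figure D5:**
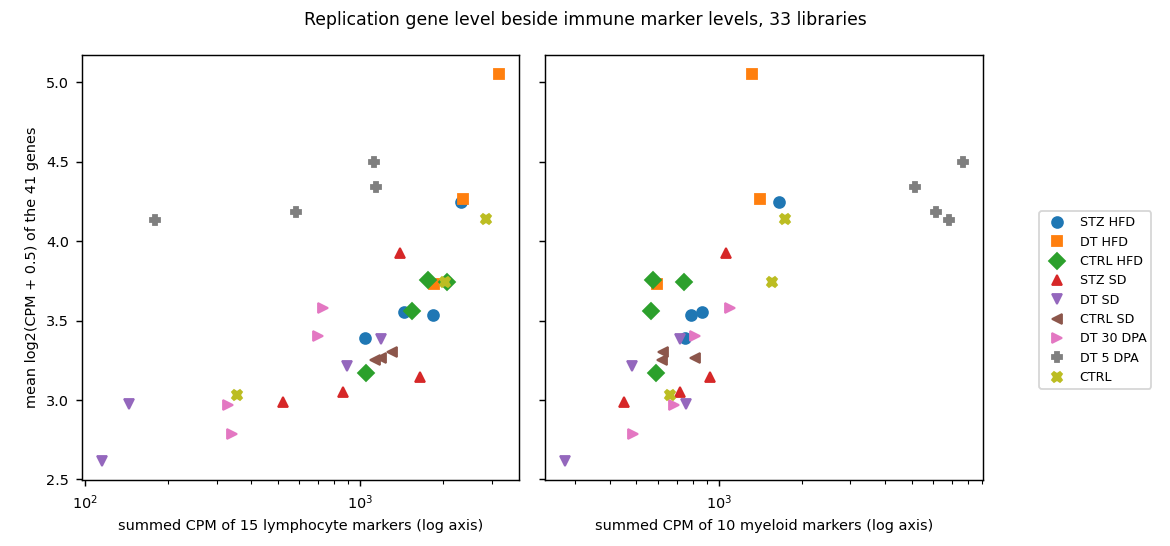
Mean log2(CPM + 0.5) of the 41 replication genes in each of the 33 libraries against the summed CPM of 15 lymphocyte markers (left) and of 10 myeloid markers (right), both on log axes, with a symbol per group. The 4 DT 5 DPA libraries stand alone in myeloid level (5163 to 7686 CPM), and DT HFD replicate 2 is highest in both replication level and lymphocyte level.

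On HFD, DT islets were not separated from untreated ones by the test. In DT HFD against CTRL HFD 0 of the 41 genes were called (all genes 0.00568%), although all 41 lay above 0 with a median log2 fold change of 0.89. In edgeR's test 32 had an unadjusted p below 0.05, DESeq2 called 1, and 10 had every DT HFD library above every CTRL HFD library, against 5.14% of all genes. The share of all genes with such an unadjusted p is not given here, so the 32 are not read as particular to the set. Prim1 had the smallest adjusted p (log2 fold change 1.02, SE 0.23, adjusted p = 0.213), at 12.1, 24.8 and 16.1 CPM in DT HFD and 7.54, 10.2, 9.70 and 7.35 CPM in CTRL HFD. Without the enterocyte libraries, DT HFD replicate 1 among them, 14 of the 41 were called, where 4.44% of all genes were. The DT by diet interaction, (DT HFD minus CTRL HFD) minus (DT SD minus CTRL SD), also gave 0 calls (all genes 0%), with 39 genes above 0, a median of 1.11, 25 unadjusted p values below 0.05, a smallest adjusted p of 0.282 and 0 calls by DESeq2. Without the enterocyte libraries 1 of the 41 was called in the interaction (all genes 1.89%), and with the replicate number as a block 2 were (all genes 3.88%).

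In the fit of all 33 libraries, edgeR's test called none of the 41 genes in any comparison of STZ islets. The same held without STZ HFD replicate 4, the library rich in acinar RNA. Some other settings gave calls in STZ HFD against DT HFD. In STZ HFD against DT HFD all 41 genes lay below 0 (median log2 fold change -0.59, 0 called, all genes 0.341%, 18 with an unadjusted p below 0.05, 3 called by DESeq2). The smallest adjusted p there was that of Pola1, at 0.0551 (log2 fold change -1.24, SE 0.29), which stood at 10.7, 12.3, 6.74 and 8.40 CPM in STZ HFD and 14.2, 37.7 and 16.1 CPM in DT HFD, without overlap. Without the enterocyte libraries 9 of the 41 were called (all genes 3.27%). STZ HFD against STZ SD also put all 41 above 0, by less (median 0.40, 0 called, all genes 0.136%, 1 with an unadjusted p below 0.05, 0 by DESeq2). STZ HFD against CTRL HFD had a median of 0.21 (0 called, all genes 0.471%, 4 with an unadjusted p below 0.05, 0 by DESeq2). STZ SD against CTRL SD had a median of 0.08 (0 called, all genes 0.00568%, 1 with an unadjusted p below 0.05, 0 by DESeq2). STZ SD against DT SD had a median of 0.31 (0 called, all genes 2.56%, 3 with an unadjusted p below 0.05, 2 by DESeq2). The STZ by diet interaction had a median of 0.09 (0 called, all genes 0%, 0 with an unadjusted p below 0.05, 0 by DESeq2).

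The remaining comparisons were also without calls. DT SD against CTRL SD had a median log2 fold change of -0.23 with 34 genes below 0 (0 called, all genes 0.0341%, 3 with an unadjusted p below 0.05, 0 by DESeq2). DT SD against DT 30 DPA had a median of -0.13 (0 called, all genes 0.0568%, 0 with an unadjusted p below 0.05, 0 by DESeq2). CTRL HFD against CTRL SD had a median of 0.30 with 37 genes above 0 (0 called, all genes 0%, 0 with an unadjusted p below 0.05, 0 by DESeq2). Tk1 stood at 9.56, 8.86, 12.1 and 9.21 CPM in CTRL HFD, 6.14, 8.41, 2.53 and 7.89 CPM in DT SD and 6.05, 5.97 and 7.83 CPM in CTRL SD. Its DT SD and CTRL SD ranges overlap, and every CTRL HFD library was above every CTRL SD library.

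A wider list of 57 other replication genes, all tested, gave 30 called lower and 1 called higher between 30 and 5 days after DT (all genes 13.9% lower). It gave 40 called higher and 0 lower in DT HFD against DT SD (all genes 15.0% higher), where no gene was called without DT HFD replicate 2. Dna2, a nuclease of flap processing, stood at 5.55, 3.32, 3.86 and 3.13 CPM in DT 30 DPA, against 17.98, 14.5, 15.1 and 15.1 CPM in DT 5 DPA (log2 fold change -1.98, SE 0.33, adjusted p = 0.000112). The primase subunit Prim2 fell by 1.02 (adjusted p = 0.00125) and Mcmbp, which binds Mcm proteins, by 0.63 (adjusted p = 0.00207). The gene called higher was Rrm2b, the p53-inducible small subunit of ribonucleotide reductase that serves outside S phase. It stood at 48.4, 56.8, 57.0 and 55.5 CPM in DT 30 DPA, against 28.3, 26.7, 31.2 and 35.0 CPM in DT 5 DPA (log2 fold change 0.84, SE 0.10, adjusted p = 1.53e-06). CTRL islets had 54.9, 45.3 and 48.7 CPM of Rrm2b, so that DT 5 DPA was below CTRL without overlap (-0.71, SE 0.11, adjusted p = 9.95e-05). Rrm2b thus moved opposite to Rrm2, its S-phase counterpart, between the times after DT.

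Cell-cycle genes outside the set were read beside it. Top2a, the topoisomerase of dividing cells, fell by 1.65 in DT 30 DPA against DT 5 DPA (adjusted p = 0.0256) and rose by 2.60 in DT HFD against DT SD (adjusted p = 0.0058). Mki67, a marker of cycling cells, rose by 3.07 in DT HFD against DT SD (adjusted p = 0.00459), with 381 CPM in DT HFD replicate 2, without which no gene was called. Mki67 was at -1.46 in DT 30 DPA against DT 5 DPA and was not called (adjusted p = 0.0511). Cdkn1a, a kinase inhibitor that restrains S phase, rose in DT 5 DPA against CTRL by 2.12 (adjusted p = 0.00889) and fell in DT 30 DPA against DT 5 DPA by 1.96 (adjusted p = 0.00204), with its highest group mean in DT 5 DPA. Cdkn1a averaged 18.3 ± 6.18 CPM in DT 30 DPA, 71.2 ± 16.0 CPM in DT 5 DPA and 16.4 ± 10.9 CPM in CTRL (SD, n = 4, 4 and 3).

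Some of these values carry limits of counting. Cdt1, Chaf1b, Mcm7, Pola1, Pold1, Pole, Rpa1 and Rrm1 overlap an annotated gene on the same strand, which no strand setting tells apart. For genes that overlap on opposite strands the setting matters, and no source used here gives it. Tk1, Mcm7, Fen1, Lig1, Chaf1a, Orc1, Orc6, Pola1, Pold1, Pole, Rfc4, Rfc5, Cdc45, Ccne2 and Gins2 overlap a gene on the other strand, and reads of the pair may not have been told apart. Pcna and Tyms have named pseudogenes, and their values are uncertain where reads could be split between the copies. On GRCm38 the genes lie at chr11:117815526-117826092 (minus strand) for Tk1, chr1:128331590-128359664 (minus strand) for Mcm6, chr5:138164583-138172422 (minus strand) for Mcm7 and chr2:132249162-132253314 (minus strand) for Pcna, all protein-coding in the annotation.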

How the data were processed

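Bulk RNA-seq of mouse islets was analysed from a deposited table of total counts per gene, which per the file headers are not normalized. The labels' protocols name the RNeasy Mini kit for extraction and a stranded QIAseq mRNA kit for the libraries, and the submitters' processing notes name mm10. Neither these nor the file headers name an aligner, a counting tool or a strand setting. Deposited TPM of the authors served only to compare levels between genes. The authors' RPKM, and a deposited column headed CPM that is a score with further scaling, were not used.

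Of 34 libraries 33 fell in 9 groups, and 1 whose title and treatment label disagree entered no comparison. Each pair of replicates differed by more than counting noise (smallest chi-square per degree of freedom 25.7). In edgeR 4.0.16 (R 4.3.3), filterByExpr removed low genes by group (minimum count 10, minimum total 15). One quasi-likelihood fit with TMM scaling and robust shrinkage gave 15 contrasts. Adjusted p-values are Benjamini-Hochberg values of edgeR's test over the 17616 genes tested, called below 0.05. CPM were computed from the counts on TMM-scaled library sizes. Standard errors are the log2 fold change divided by the square root of F. Scripts were tested on simulated data.

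The members and all lists were chosen with earlier results of these data known. Values in every library are given for members with the smallest adjusted p below 0.05 (up to 8 between DT 30 DPA and DT 5 DPA, up to 6 in each other comparison), for the member with the highest mean CPM in each role, and for a few more chosen after their values were seen (Prim1, Pola1 and Orc6 in later comparisons among them). Marker lists other than those described are not reported here. Locations come from GENCODE and promoter windows from RefSeq. The other settings were DESeq2 1.42.0 size factors and its Wald test, no low-count filter, the compared groups alone, the replicate number as a block, each replicate left out, and sets of libraries left out, of which the lymphocyte-rich and enterocyte libraries together were chosen after seeing the data.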

Additional observations from a re-analysis of the deposited data

Results flagged for a closer look

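Among 108 groups of 4 libraries examined, 1 per gene and group, 4 held a library far from the other 3, with a gap to the nearest of them above Dixon's 95% critical value as a share of the group's range. Chance gives about 1 in 20 such groups. Cdt1 was high in STZ SD replicate 1, at 13.5 CPM beside 7.26, 7.61 and 7.79 CPM. Chaf1a was high in STZ HFD replicate 2, at 9.71 CPM beside 5.14, 5.17 and 5.51 CPM. Rrm1 was low in DT SD replicate 3, at 20.96 CPM beside 27.7, 28.0 and 29.2 CPM. Tyms was low in STZ SD replicate 4, at 4.53 CPM beside 7.89, 8.27 and 8.52 CPM. The first lies in a library with enterocyte RNA, the second in a library rich in lymphocyte RNA, and the last in another library with enterocyte RNA, whose part was not tested.

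The library that entered no comparison, titled as CTRL HFD replicate 1 with the treatment label DT, had 38 of the 41 genes above every CTRL HFD library, as it did 27.9% of all 17616 genes tested.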

How the results depend on the processing

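Counts of the 41 genes called moved by over 1.5 times in some settings. The cause was not tested beyond the libraries left out. The counts in this section stand without the share of all genes called in each setting. A moved count therefore cannot be told here from a change over all genes. DESeq2's Wald test called 5 in DT 5 DPA against CTRL, 4 in DT 30 DPA against CTRL, 2 in STZ SD against DT SD, 1 in DT HFD against CTRL HFD and 3 in STZ HFD against DT HFD. The compared groups alone gave 0 in DT 5 DPA against CTRL. Without the lymphocyte-rich libraries the counts were 7 in DT 5 DPA against CTRL and 1 in DT HFD against DT SD. Without the enterocyte libraries they were 0 in DT 5 DPA against CTRL, 1 in DT 30 DPA against DT 5 DPA, 14 in DT HFD against CTRL HFD, 9 in STZ HFD against DT HFD and 1 in the DT by diet interaction. Without both sets they were 0 in DT 5 DPA against CTRL, 4 in DT 30 DPA against DT 5 DPA and 11 in DT HFD against DT SD. With each replicate left out in turn, counts ranged from 1 to 4 in DT 5 DPA against CTRL, 0 to 12 in DT 30 DPA against CTRL, 21 to 31 in DT 30 DPA against DT 5 DPA, 0 to 1 in DT HFD against CTRL HFD, 0 to 3 in STZ HFD against DT HFD and 0 to 38 in DT HFD against DT SD. In DT 5 DPA against CTRL 1 was called without CTRL replicate 1 or without DT 5 DPA replicate 1, 2 or 3. DESeq2 size factors and the absence of a filter moved no count past 1.5 times. Of 17 named calls, 1 (Tk1 in DT 30 DPA against DT 5 DPA) was made in every setting, 16 were lost in at least 1 setting and 0 reversed. The losses were uneven. In DT 5 DPA against CTRL, E2f1 was kept in 4 other settings and lost in 11, Ccne2 kept in 7 and lost in 8, and Orc6 kept in 9 and lost in 6. The named calls of the other comparisons were lost in 0 to 3 settings.

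The replicate numbers were not taken as pairs, since in no comparison did all same-numbered pairs deviate together with a correlation over 0.1. Correlations ran from 0.084 to 0.65 in DT 5 DPA against CTRL and from 0.065 to 0.44 in STZ HFD against DT HFD. The lowest was -0.18, in STZ SD against DT SD. This rule cannot show that the numbers mark no pairs. With the replicate number as a block the counts were 0 in DT 5 DPA against CTRL, 31 in DT 30 DPA against DT 5 DPA, 28 in DT HFD against DT SD, 4 in DT HFD against CTRL HFD, 1 in CTRL HFD against CTRL SD and 2 in the DT by diet interaction. Low genes such as Orc1, under 5 CPM in every library, are limited by depth.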

Other observations

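In the library with conflicting labels the 41 genes had a mean log2(CPM + 0.5) of 4.54, against 3.17 to 3.76 in the CTRL HFD libraries and 3.73 to 5.05 in the DT HFD libraries. Its values lay within the DT HFD range for 37 of the 41 genes and within the CTRL HFD range for 3. They lay within the range of DT 5 DPA for 17, of STZ HFD for 8 and of CTRL for 7. The DT HFD range is wide, and the share of all genes within each range is not given here. Which group the library belongs to was not tested. The lymphocyte marker sum of this library was 1802 CPM.

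Rrm2b, described above for the times after DT, was at 51.5, 50.8, 43.1 and 52.0 CPM in STZ HFD, 56.5, 57.2 and 48.3 CPM in DT HFD, 58.4, 63.3, 60.6 and 63.2 CPM in CTRL HFD, 44.6, 54.2, 58.6 and 52.8 CPM in STZ SD, 52.2, 50.2, 61.6 and 56.8 CPM in DT SD and 58.0, 52.0 and 55.1 CPM in CTRL SD. No library of these groups was as low as any of DT 5 DPA, whose highest was 35.0 CPM. Rrm2b was not called in DT HFD against DT SD (log2 fold change -0.03, adjusted p = 0.846), where Rrm2 rose. In STZ HFD against DT HFD, edgeR's test on all 33 libraries called none of the 41 genes. There 2 of the 57 other replication genes were lower (all genes 0.341% in either direction). They were Atad5, which unloads the clamp (log2 fold change -1.42, adjusted p = 0.0421), and Rfc1, the large subunit of the clamp loader (-0.81, adjusted p = 0.0406). In DT HFD, Atad5 stood at 12.6, 28.6 and 15.6 CPM and Rfc1 at 62.4, 104 and 65.6 CPM. Replicate 2 was highest for both, and their values without it are not given here. Atad5, Rfc1 and Chek1 are named because they were called, after their values were seen. Chek1, the checkpoint kinase of stalled forks, rose in DT 5 DPA against CTRL by 1.50 (adjusted p = 0.0179), where 3.80% of all genes were called higher. It stood at 8.33, 6.35, 5.60 and 7.21 CPM in DT 5 DPA, against 1.91, 3.12 and 2.27 CPM in CTRL. How many of the 57 were called there, and the Chek1 value without the enterocyte libraries, are not given here.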
